A study of Equus caballus with 10 samples.

Results

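The tissue inhibitors of metalloproteinases, TIMP1, TIMP2, TIMP3 and TIMP4, and the membrane-anchored inhibitor RECK were examined in equine tenocytes. These 5 genes were taken by name from a table of 29196 genes, and all 5 were listed and could be tested. Primary tendon cells of 5 adult horses, called donors 1 to 5, were cultured for 14 days in 3D collagen gels, and each donor gave 1 library to each of 2 groups. In the first group, called PF alone, the IRAK-4 inhibitor PF-06650833 was added daily at 100 nM. In the second group, called PF + IL-1β, the same inhibitor was combined with 17 ng/ml IL-1β, added every 3 to 4 days. All 10 libraries therefore carried the inhibitor, and untreated cells and cells with IL-1β alone were not analysed here. The cells came from the superficial digital flexor tendon, had been expanded in culture before use, and were embedded in bovine type I collagen.

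The TIMPs are small secreted proteins that block the active site of matrix metalloproteinases, the enzymes that cleave collagens and other matrix proteins. TIMP1 acts mainly on soluble metalloproteinases, TIMP2 also takes part in the activation of MMP2 by the membrane-bound enzyme MMP14, and TIMP3 binds to the matrix and additionally inhibits ADAM and ADAMTS proteases. RECK is held at the cell surface by a lipid anchor, restrains several metalloproteinases and is a partner of the receptor ADGRA2 in WNT7 signalling. In tendon, the balance between these inhibitors and the collagenases is regarded as one determinant of matrix turnover.

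Expression was given as a variance-stabilized log2 value, on which 1 unit is a doubling for genes with many reads, and on which a gene with 0 reads stands at 3.43. The spacing of the low values gave estimated depths of 26429492 to 35869278 reads on genes in the PF alone libraries and of 26839858 to 33508557 in those with PF + IL-1β. A gene was called differentially expressed at an adjusted p below 0.05 (limma, Benjamini-Hochberg over all tested genes) and a log2 fold change of 1 or more in either direction. Of the tendon markers, SCX, MKX and the type I collagen genes were expressed, whereas TNMD was at 0 reads in all 10 libraries. RNA was measured in bulk, so fewer cells of a kind and less RNA per cell cannot be told apart.

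Only TIMP1 was called differentially expressed among the 5 genes when IL-1β was present together with PF-06650833. TIMP1 was higher in all 5 donors, by 1.31 on the log2 scale on average, while TIMP2, TIMP3, TIMP4 and RECK did not pass the test. Thus 1 of the 5 genes was differentially expressed, where 6.68% of the 17992 tested genes were. The groups overlapped for all 5 genes, whereas they did not overlap for 12.7% of tested genes. TIMP1 was also the only gene of the 5 to change in the same direction in all 5 donors, which 32.7% of tested genes did. Whether the change of TIMP1 differed from those of the other 4 genes was not tested, but it was the larger in 5 of 5 donors against TIMP2, TIMP4 and RECK and in 4 of 5 donors against TIMP3.

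**Figure D1:**
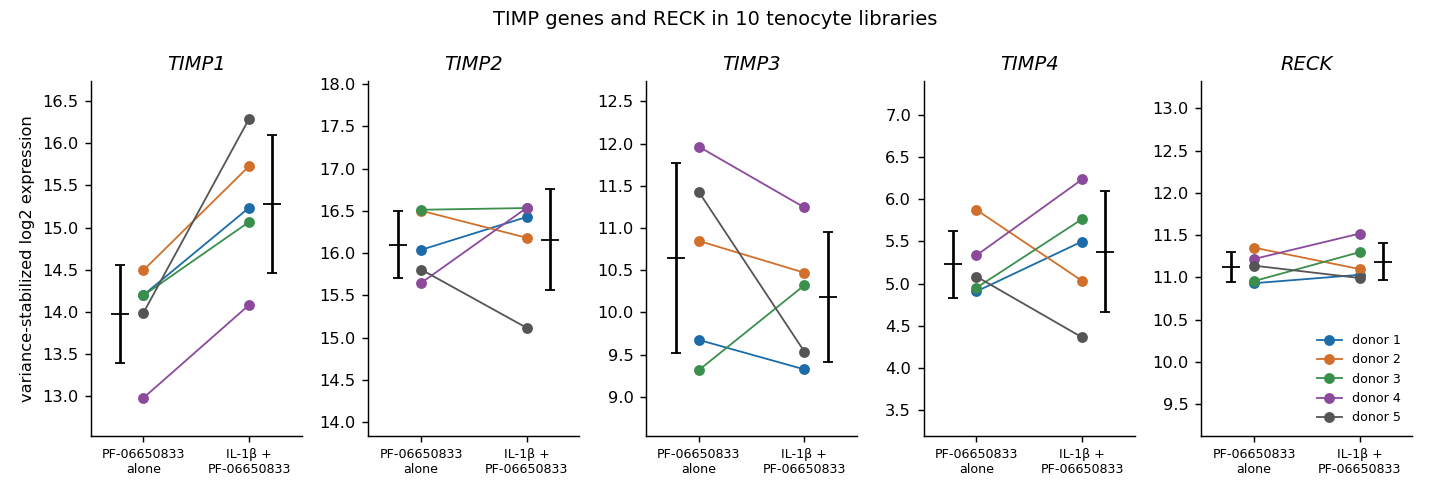
Variance-stabilized log2 expression (vertical axis, each panel spanning the same number of log2 units) of the 5 inhibitor genes with PF alone and with PF + IL-1β. Points are libraries, lines join the libraries of 1 donor, and black bars are group means ± SD (n = 5). Only in the TIMP1 panel do the lines of all 5 donors rise.

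TIMP1, the inducible inhibitor of the family, had log2 expression of 14.20, 14.49, 14.20, 12.98 and 13.99 in donors 1 to 5 with PF alone. With PF + IL-1β it stood at 15.23, 15.73, 15.07, 14.08 and 16.29 in the same donors. Donor 4 was the lowest in both groups, and its library with IL-1β lay inside the range of the libraries without it, which is why the groups overlapped. The group means were 13.97 ± 0.58 (SD, n = 5) and 15.28 ± 0.82 (SD, n = 5), which differed by 1.31 on the log2 scale (standard error 0.39, 95% confidence interval 0.44 to 2.17, limma adjusted p = 0.0450). Compared within each donor, the normalized count of TIMP1 rose 2.05-fold, 2.35-fold, 1.83-fold, 2.15-fold and 4.91-fold. The rise was therefore close to a doubling in donors 1 to 4 and larger in donor 5.

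The call for TIMP1 lay near the threshold in the comparison that ignores the donor. The difference between the groups accounted for 51.3% of the variance of TIMP1 over the 10 libraries and the differences between donors for 40.9%. With only 2 libraries per donor, a sizeable donor share arises even where donors do not differ, here and for the genes below. With the donor as a replicate block the standard error fell from 0.39 to 0.21 and the adjusted p to 0.00445 (limma), and 8.26% of tested genes were called in that fit. The fit without the block lost the call when any 1 of 9 libraries was left out, with log2 fold changes between 1.05 and 1.44 and adjusted p-values up to 0.106 from limma, and kept it only without the donor 4 library with IL-1β (1.60). With the block, TIMP1 stayed differentially expressed without each of the 5 donors in turn, with log2 fold changes of 1.06 to 1.41. The smallest of these, 1.06, was obtained without donor 5.

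**Figure D2:**
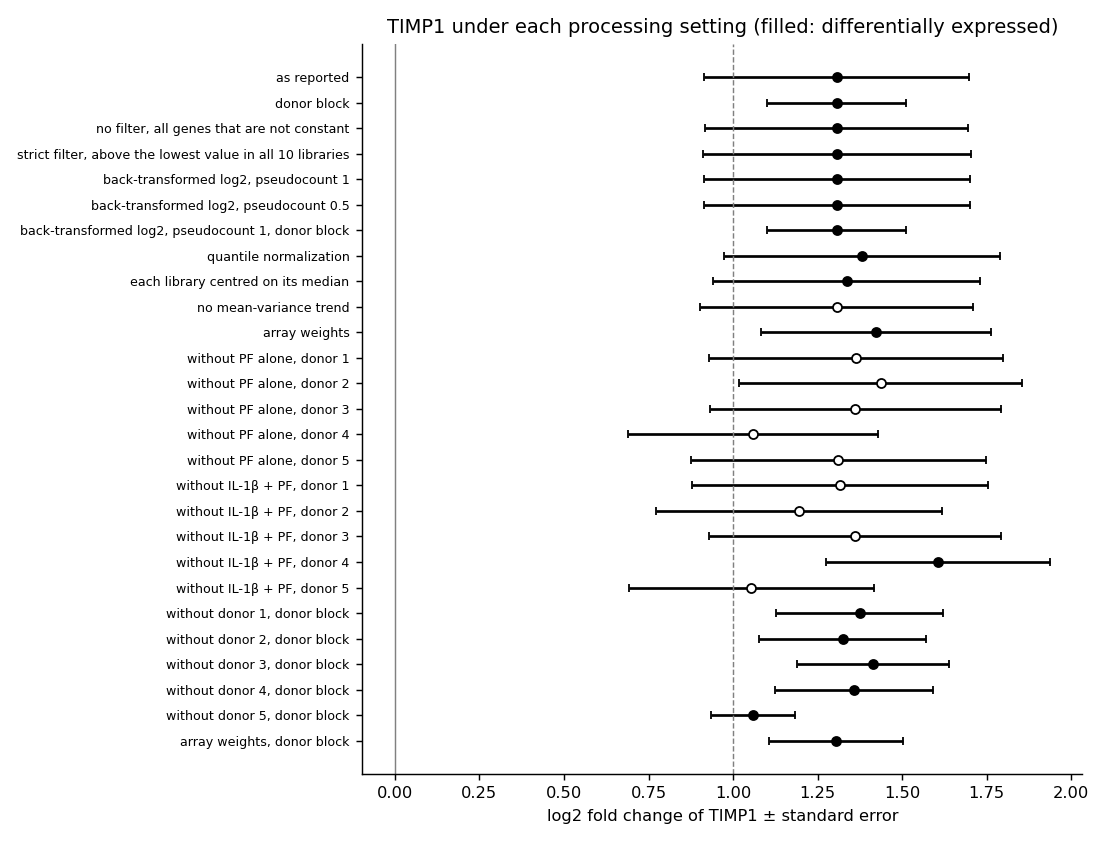
Log2 fold change of TIMP1 (horizontal axis, ± standard error) under each processing setting (rows), with filled points where TIMP1 was differentially expressed and open points where it was not. The dashed line marks the minimum log2 fold change of 1; all estimates lie between 1.05 and 1.60, and the fits with the donor as a block have the shorter bars.

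TIMP2, which is usually expressed constitutively, did not show a common direction. Its log2 expression in donors 1 to 5 was 16.04, 16.50, 16.51, 15.65 and 15.81 with PF alone. With PF + IL-1β it was 16.43, 16.18, 16.53, 16.54 and 15.12. In the second group 4 libraries lay between 16.18 and 16.54, and donor 5 lay far below them. TIMP2 was higher in 3 donors and lower in 2, with changes from -0.69 in donor 5 to 0.89 in donor 4. The group means were 16.10 ± 0.40 (SD, n = 5) and 16.16 ± 0.60 (SD, n = 5), and the log2 fold change was 0.06 (95% confidence interval -0.62 to 0.73, adjusted p = 0.926 from limma). The interval lies inside the minimum fold change in both directions. The donors accounted for 63.4% of the variance of TIMP2 and the groups for 0.398%.

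TIMP3, the matrix-bound inhibitor with the broadest range of targets, varied widely between donors, which accounted for 66.5% of its variance. Its log2 expression in donors 1 to 5 was 9.67, 10.85, 9.32, 11.96 and 11.43 with PF alone, and 9.33, 10.47, 10.32, 11.24 and 9.54 with PF + IL-1β. It was lower with IL-1β in 4 donors, by 0.35 to 1.89 on the log2 scale, and higher by 1.00 in donor 3, which had the lowest value without IL-1β. The group means of 10.65 ± 1.13 (SD, n = 5) and 10.18 ± 0.77 (SD, n = 5) gave a log2 fold change of -0.47 (SE 0.52, limma adjusted p = 0.608). The 95% confidence interval from -1.61 to 0.68 includes a decrease beyond the minimum fold change. With the replicate block the standard error was 0.34 and the adjusted p 0.366 (limma). With the replicate block the estimate was -0.83 without donor 3 (adjusted p = 0.0612 from limma) and -0.11 without donor 5 (adjusted p = 0.827).

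TIMP4, the member with the most restricted expression in the body, was close to the lower end of the measurable range. Its log2 expression in donors 1 to 5 was 4.91, 5.87, 4.95, 5.33 and 5.08 with PF alone, which corresponds to 11, 29, 10, 20 and 15 estimated reads. With PF + IL-1β it was 5.50, 5.03, 5.76, 6.23 and 4.36, or 21, 13, 30, 39 and 4 estimated reads. Donors 1, 3 and 4 were higher and donors 2 and 5 lower with IL-1β. The log2 fold change was 0.15 (95% confidence interval -0.60 to 0.90, adjusted p = 0.820 from limma). Variance stabilization compresses differences at such low counts. On back-transformed log2 values with a pseudocount of 1 the estimate was 0.16 with a standard error of 0.60, against 0.34 on the stabilized scale. The donors went in opposite directions, and how much of this error came from the low counts was not tested.

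RECK was the steadiest of the 5 genes. Its log2 expression in donors 1 to 5 was 10.93, 11.35, 10.96, 11.22 and 11.14 with PF alone, and 11.03, 11.10, 11.30, 11.52 and 10.99 with PF + IL-1β. All 10 values lay between 10.93 and 11.52, and the change in a donor was at most 0.34 upwards and 0.25 downwards. The group means were 11.12 ± 0.18 (SD, n = 5) and 11.19 ± 0.22 (SD, n = 5), which gives a log2 fold change of 0.07 (SE 0.12, limma adjusted p = 0.766). With a 95% confidence interval of -0.20 to 0.34, RECK was the member for which a change was bounded most tightly.

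The donors divided in the same way for TIMP2, TIMP4 and RECK. Each of these was higher with IL-1β in donors 1, 3 and 4 and lower in donors 2 and 5, a pattern shown by 2.93% of tested genes (527 of 17992), although the change of TIMP2 in donor 3 was only 0.02. Over the 10 libraries, which come in pairs from 5 donors, the Pearson correlation was 0.87 between TIMP4 and RECK, 0.73 between TIMP2 and TIMP4 and 0.39 between TIMP2 and RECK. TIMP1 had negative correlations with the other 4 genes, from -0.61 with TIMP3 to -0.16 with TIMP2. In donor 5, TIMP1 had its largest increase (2.30) and TIMP2 and TIMP3 had their largest decreases (-0.69 and -1.89).

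The genes whose values followed a member most closely were sought among 13380 tested genes with a symbol. TIMP1 was followed by LYPD6B (Pearson r = 0.98 over 10 libraries), PI4K2A (0.98) and BDKRB1 (0.98). BDKRB1, the bradykinin B1 receptor, was differentially expressed (log2 fold change 2.23, adjusted p = 0.0288 from limma), LYPD6B was not (1.79, adjusted p = 0.0754), and PI4K2A had a change of 0.58 (adjusted p = 0.0243) below the minimum fold change. TIMP2 was followed by HSPBAP1 (r = 0.94), ELMO2 (0.94) and AJM1 (0.94). For TIMP3 these genes were AGRN, which encodes the basement membrane proteoglycan agrin (r = 0.96), FCHSD2 (0.95) and PROSER2 (0.94). They were GABPB2 (0.96), MBOAT4 (0.95) and DVL3 (0.94) for TIMP4 and MAST3 (0.95), NPR2 (0.94) and DVL3 (0.94) for RECK. DVL3, which encodes a Dishevelled protein of WNT signalling, was found for both TIMP4 and RECK. These 2 members correlate with each other at 0.87, so a shared gene adds little, and a link to WNT signalling was not tested. None of the 11 genes named beside TIMP2, TIMP3, TIMP4 and RECK was differentially expressed. They were picked for following members that were not called in the same libraries, so this is not a separate result. Nor is the call of BDKRB1, which was picked for following TIMP1 in these libraries.

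Each of the 5 genes shares its place in the genome with another gene. In the RefSeq annotation of the horse assembly TB-T2T, which is not the build of the table and was used for neighbours only, TIMP1 lies across SYN1, TIMP3 across SYN3 and TIMP4 across SYN2, the synapsin genes of nerve terminals, while TIMP2 overlaps CEP295NL and RECK overlaps LOC102149851. SYN1 had log2 expression of 6.63, 6.73, 7.18, 5.85 and 6.87 in donors 1 to 5 with PF alone and of 7.06, 7.27, 7.72, 6.40 and 7.89 with PF + IL-1β. Like TIMP1, it was higher in 5 of 5 donors, with the largest change in donor 5 and the lowest values in donor 4. Its log2 fold change was 0.61 (adjusted p = 0.232 from limma), and its Pearson correlation with TIMP1 was 0.87 over the 10 libraries. SYN1 held 35 to 185 estimated reads per library, against 7441 to 68641 for TIMP1. Reads were assigned to spliced transcripts, and whether reads of TIMP1 were assigned to SYN1 was not tested. The other overlapping genes had few reads. SYN3 had at most 1 estimated read, SYN2 at most 7, CEP295NL at most 11 and LOC102149851 at most 23, and SYN2, CEP295NL and LOC102149851 did not pass the test.

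The proteases that these inhibitors act on were compared with them. Of 22 matrix metalloproteinases, 17 could be tested and the test called 4, with 3 rising and 1 falling under PF + IL-1β. That is 23.5% of the 17, where 6.68% of all tested genes were called. The median log2 fold change of the 17 was 0.72, against -0.01 for all tested genes. MMP1, the interstitial collagenase, rose by 5.97 log2 units (limma adjusted p = 0.0165), MMP3, stromelysin-1, by 5.40 (adjusted p = 0.00542) and MMP9, gelatinase B, by 2.09 (adjusted p = 0.0182), while MMP23B fell by 1.56 (adjusted p = 0.00721). With the replicate block, where 8.26% of all tested genes were called, MMP8 and MMP25 were differentially expressed as well, which brought the count to 6. The collagenase MMP13 (log2 fold change 2.05, adjusted p = 0.113 from limma), the gelatinase MMP2 (0.73, adjusted p = 0.185) and MMP14 (0.60, adjusted p = 0.170) did not pass.

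Of 19 ADAMTS proteases, 15 could be tested, with a median log2 fold change of -0.34. Of these 15, 1 was higher and 1 lower (13.3%), where 6.68% of all tested genes were called. ADAMTS9, a versican-cleaving protease, rose by 1.73 (adjusted p = 0.0480 from limma) and ADAMTS6 fell by 2.48 (adjusted p = 0.00494). The count of 2 called ADAMTS genes ranged from 1 to 4 when single libraries, or with the replicate block single donors, were left out. The aggrecanase ADAMTS4 had an adjusted p of 0.0131 from limma but a log2 fold change of only 0.72, and ADAMTS5 had one of 0.57 (adjusted p = 0.103). Of 9 ADAM sheddases, 8 could be tested and 2 were called (25.0%), against the same 6.68% of all tested genes. ADAM8 rose by 4.28 (adjusted p = 0.00358 from limma) and ADAM19 fell by 1.26 (adjusted p = 0.00438). ADAM10 (0.49, adjusted p = 0.00851 from limma) and ADAM17, the TNF-releasing enzyme (0.22, adjusted p = 0.107), were below the minimum fold change.

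**Figure D3:**
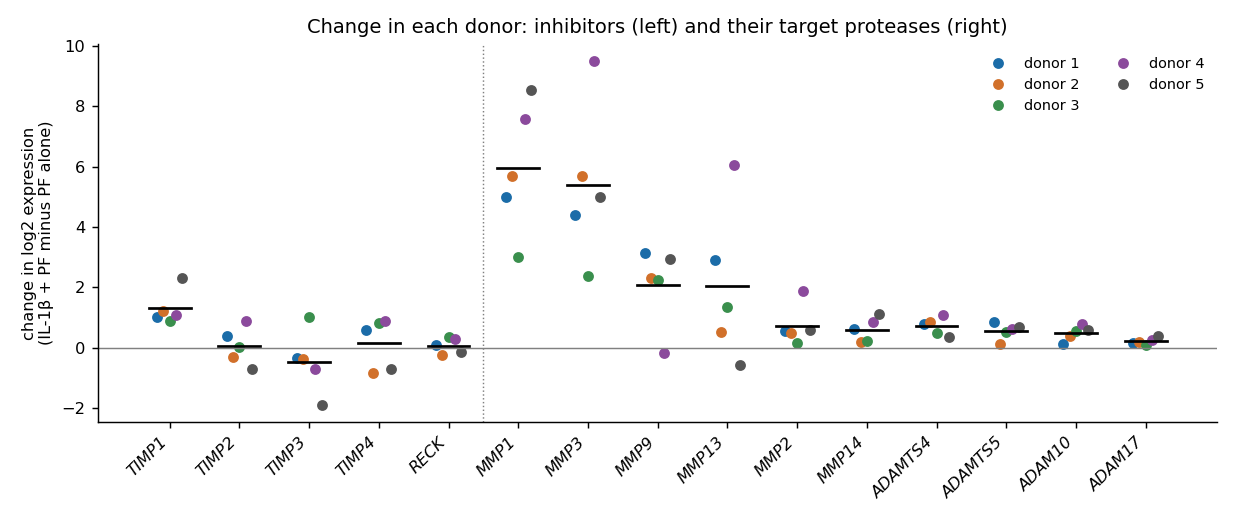
Change in log2 expression in each donor (vertical axis, PF + IL-1β minus PF alone) for the 5 inhibitor genes, left of the dotted line, and for 10 of their target proteases. Points are donors and black lines are means over 5 donors. MMP1 and MMP3 rose by 5.97 and 5.40 on average and TIMP1 by 1.31, and the other 4 inhibitor genes have donors on both sides of 0.

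For each inhibitor, the change of a known target was then set against its own change in the same donor. These pairs were chosen with results of these data known, so the differences are described without a test. The change of MMP1 exceeded that of TIMP1 in 5 of 5 donors, by 2.15 to 6.49 on the log2 scale (mean 4.67 ± 1.78, SD over donors). That of MMP3 also exceeded it in 5 of 5 donors, by 1.51 to 8.40 (mean 4.10 ± 2.64). For both pairs the values of the groups did not overlap. With PF alone, MMP1 had 3 to 2954 estimated reads per library and MMP3 12 to 119, so some changes start from low counts. Donor 4, with 3 and 17 estimated reads, gave the largest differences, 6.49 and 8.40. For MMP3, however, donor 5 started from the fewest reads (12) and had a difference of 2.71. On back-transformed log2 values with a pseudocount of 1, the mean differences were 5.15 and 4.72. MMP9 outpaced TIMP1 in 4 donors, and donor 4 was the exception (-1.28). MMP13 outpaced TIMP1 in 3 donors and fell behind it in donors 2 and 5 (-0.70 and -2.88). On the log2 scale, TIMP1 thus rose by less than the collagenase MMP1 and the stromelysin MMP3 in every donor. It did not stand in a fixed relation to MMP9 and MMP13. In level, TIMP1 mostly stayed above MMP1 and MMP3 with PF + IL-1β. There, MMP1 minus TIMP1 was -2.29 to 1.90 (median -0.66) and MMP3 minus TIMP1 -6.36 to 0.61 (median -5.06). The medians of the other pairs were above 0. MMP13 minus TIMP1 was -1.77 to 5.04 (median 2.16) and MMP9 minus TIMP1 -0.70 to 1.48 (median 0.83). Transcript length was not taken into account in these comparisons of level between genes.

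The pairs of TIMP2, TIMP3 and RECK differed less than those of MMP1 and MMP3 with TIMP1. MMP2 changed more than TIMP2 in 5 of 5 donors, by 0.13 to 1.28, and MMP14 in 4 of 5, with -0.05 in donor 4. Against TIMP3, the means over donors were 1.18 for ADAMTS4, 1.03 for ADAMTS5, 0.95 for ADAM10 and 0.68 for ADAM17. Donor 3, in which TIMP3 was higher with IL-1β, was below 0 for all of these 4 pairs, and the other 4 donors were above 0 for all of them. Against RECK, the means were 2.02 for MMP9, 0.67 for MMP2, 0.53 for MMP14 and 0.42 for ADAM10. The change of MMP9 relative to RECK was above 0 in 4 donors and below 0 in donor 4 (-0.48). Those of MMP2 and MMP14 were above 0 in 4 donors and below 0 in donor 3, and that of ADAM10 was above 0 in all 5. In all 12 pairs other than those of MMP1 and MMP3 with TIMP1, the values of the groups overlapped.

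**Figure D4:**
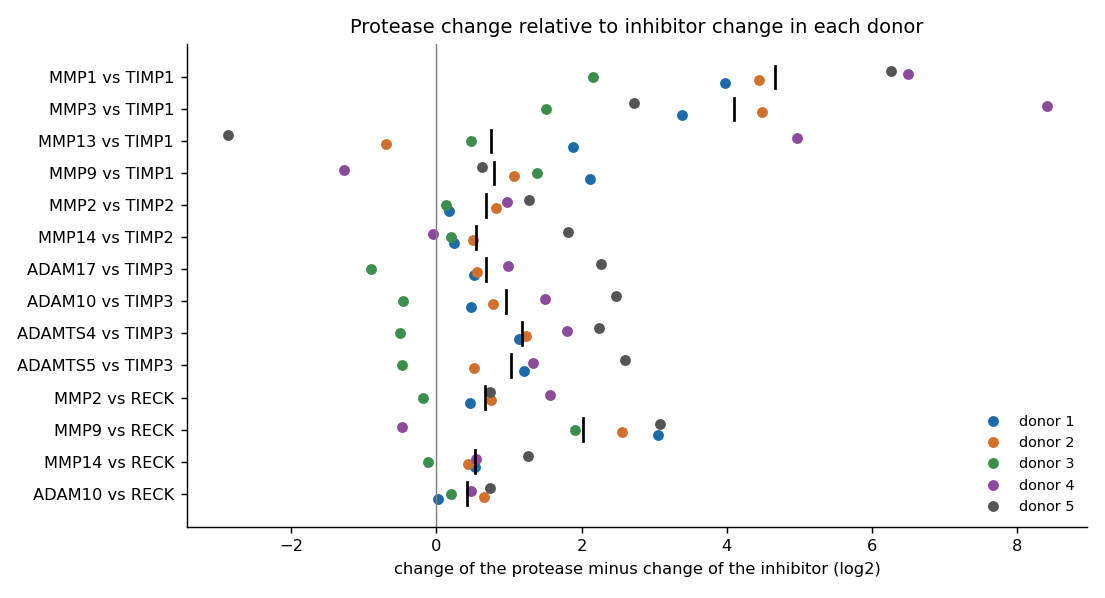
Change of each protease minus the change of its inhibitor in the same donor (horizontal axis, log2; 0 means equal changes) for 14 pairs (rows). Points are donors and black lines are means over 5 donors; the MMP1 and MMP3 pairs with TIMP1 have means of 4.67 and 4.10, while the other 12 pairs have means between 0.42 and 2.02.

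Of 10 binding partners and receptors of the inhibitors, 9 could be tested, with a median log2 fold change of -0.10. Of these 9, 1 was higher and 1 lower (22.2%), where 6.68% of all tested genes were called. CD74, the invariant chain, to which TIMP1 can bind, rose by 3.73 (adjusted p = 0.00467 from limma), from at most 23 estimated reads per library to between 60 and 765. ADGRA2, the receptor that acts with RECK, stood at 12.97 ± 0.41 (SD, n = 5) with PF alone and at 10.81 ± 0.69 (SD, n = 5) with PF + IL-1β. Its log2 fold change was -2.17 (limma adjusted p = 0.00132), and it was lower in 5 of 5 donors. RECK itself moved by no more than 0.34 in any of these donors. CD63, a receptor of TIMP1 at the cell surface, had a log2 fold change of 0.24 (adjusted p = 0.310 from limma). LRP1, which takes up TIMP3 and other matrix proteins from the medium, was lower in 5 of 5 donors (-0.91, adjusted p = 0.116 from limma) without passing the test.

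Among the other inhibitors of metalloproteinases, 4 of 6 genes could be tested. None (0) was differentially expressed, where 6.68% of all tested genes were, with 0 also at an unadjusted p below 0.05. TFPI2, a Kunitz-type inhibitor, had a log2 fold change of 1.91 (adjusted p = 0.303 from limma). It was higher in 5 of 5 donors and was differentially expressed with the replicate block (adjusted p = 0.0166 from limma). SPOCK1, which encodes the matrix proteoglycan testican-1, had one of -1.40 (adjusted p = 0.303) and was lower in 4 of 5 donors.

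A few single markers of other cell types were differentially expressed, where 6.68% of all tested genes were. Of 7 leukocyte markers, 3 could be tested, while CD3E and MS4A1 were at 0 reads in all libraries and PTPRC had at most 3 estimated reads. Of the tested ones, 1 was called, as CD68 rose by 1.70 (adjusted p = 0.00795 from limma), and the summed normalized counts of the list were 61.3 to 1766 with PF alone and 171 to 1943 with PF + IL-1β. Of 3 adipocyte markers, 2 could be tested. ADIPOQ rose by 3.11 (adjusted p = 0.00543 from limma) and PLIN1 was not called, with summed counts of 17.8 to 167 and 362 to 2326. The sums of the 4 endothelial markers (6.83 to 38.3 against 3.88 to 26.2) and of the 3 chondrocyte markers (6.27 to 14.0 against 8.07 to 22.7) overlapped, and COL9A1 was at 0 reads. Of 4 mural markers 1 was lower, RGS5, and the sums of the list were 1649 to 33877 and 4282 to 12737. Of 8 tested tendon markers, SCX, MKX and COMP were lower. With the replicate block, where 8.26% of all tested genes were called, 5 were lower, with COL1A1 and COL1A2 added. Whether RNA of other cells contributed to the change of TIMP1 was not tested.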

How the data were processed

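Salmon, run by the authors with GC-bias correction, assigned the reads to EquCab3.0 transcripts, tximport summed them to genes, and the authors deposited log2 values normalized between libraries. The transformation is not named in the sources used here. The values share a lowest value of 3.433 in all 10 libraries, and a variance-stabilizing transformation with this value at 0 reads was inverted to obtain normalized counts. Their steps gave approximate depths, with 67.3% to 84.4% of low values within 0.15 of a whole read (30% if evenly spread). These reads are estimates, and TIMP4 had the fewest of the 5 members.

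A gene was tested where 5 or more of the 10 libraries exceeded the lowest value, which left 17992 genes. They were fitted with limma 3.58.1 (R 4.3.3), using its mean-variance trend, with p-values adjusted over all of them after Benjamini and Hochberg. No donor term was included, as the study names none. The library titles name the tenocyte line, so replicate numbers stand for donors. Same-numbered libraries deviated together from their group means (correlation across genes at least 0.367 in each of 5 pairs, mean 0.433). The mean between different donors was -0.107. Taking deviations from group means by itself pulls that value below 0 where same-numbered libraries correlate, so it is not a separate contrast. In simulated counts for 17863 genes, with 200 changed by 2 on the log2 scale, the fit found 193 and made 5 false calls. The changed genes were drawn only from genes with higher counts, which leaves out genes as low as TIMP4. The simulated variation between libraries was capped, so the most variable genes were not represented. Smaller changes were not simulated, so these counts do not show how often a change nearer the minimum fold change, such as that of TIMP1, is found. How differences between donors affect these counts was not tested. The members, lists, pairs and tests were chosen with earlier results of these data known. Named were all members, all genes of a pair and the called genes of each list. Also named were the 3 genes with the highest correlation with each member. CEP295NL and LOC102149851 were taken by their overlap with a member, in a search that was not planned. Any other gene was chosen after its values were seen. MMP10, ADAMTS3, A2M, PZP, COL3A1 and FABP4 were not analysed here. Figures were drawn with matplotlib 3.10.9.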

Additional observations from a re-analysis of the deposited data

Results flagged for a closer look

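The donor 5 library of the PF + IL-1β group had TIMP2 at 15.12 on the log2 scale, far below the other 4 libraries of that group, which lay between 16.18 and 16.54. The gap to the nearest library was 0.750 of the range of the group, above the critical value of 0.71 for 5 samples. It was the only such library in 38 groups of 5 that were checked, over 19 genes, where chance gives about 1.90. Without this library the log2 fold change of TIMP2 was 0.32 and its adjusted p 0.446 from limma.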

How the results depend on the processing

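TIMP1 was higher in all 29 alternatives and differentially expressed in 18 of them. Besides the fits with 1 library left out, its call was lost without a mean-variance trend (log2 fold change 1.31, limma adjusted p = 0.0561) and at a threshold of 0.01 on the adjusted p (1.31). Leaving out single libraries moved TIMP1 between 1.05 and 1.60, TIMP2 between -0.056 and 0.32, TIMP3 between -0.80 and -0.14, TIMP4 between -0.065 and 0.40 and RECK between -0.014 and 0.13. With the replicate block and without single donors the ranges were 1.06 to 1.41 for TIMP1, -0.15 to 0.24 for TIMP2, -0.83 to -0.11 for TIMP3, -0.039 to 0.40 for TIMP4 and -0.00019 to 0.15 for RECK, and TIMP2 was also below 0 without donor 1 (-0.025) and TIMP4 without donor 3 (-0.017). TIMP2, TIMP3, TIMP4 and RECK were differentially expressed in none (0) of their 29 alternatives. The sign of RECK also changed with array weights (-0.0093). The replicate block changed the call of none (0) of the 5 genes. The causes were not tested.

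Of all tested genes, 1202 were differentially expressed (560 higher, 642 lower), and 1486 with the replicate block. The counts were 2782 without a minimum fold change (1362 higher, 1420 lower) and 719 at the threshold of 0.01 (345 and 374). The block on back-transformed values gave 1809 (891 higher). The block without a minimum fold change, chosen after seeing the data as was the block with array weights, gave 3996 (1969 and 2027). Without single libraries or donors they ranged from 932 to 1677 (424 to 777 higher, 507 to 942 lower). Over the same fits the count of called metalloproteinases, 4 as reported, ranged from 3 to 6, that of ADAMTS proteases, 2 as reported, from 1 to 4, that of ADAM sheddases, 2, from 2 to 3, that of binding partners, 2, from 2 to 4, and that of other inhibitors, 0, from 0 to 2. All 28 recomputed differences between a protease and its inhibitor moved by less than the SD over donors. That SD ran from 0.30 to 2.93, a wide limit for pairs whose donors differ. MMP3 minus TIMP1, for example, went from 4.10 to 4.72 with a pseudocount of 1.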
